A study of Drosophila melanogaster with 36 samples.

Results

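The 32 genes described here encode the contractile apparatus of muscle in Drosophila melanogaster: actins, myosin chains and other thick filament proteins, tropomyosins and troponins, Z-disc proteins, giant elastic proteins, and the calcium pump and calcium release channel of the sarcoplasmic reticulum. They were chosen by gene symbol among the 17552 genes of the deposited count table. All 32 were found, with Unc-89 listed in the annotation under the symbol Obsc. RNA was measured in abdomens and heads of adult females that were either virgins or mated.

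Muscle contracts when myosin heads of the thick filament pull on actin of the thin filament. Calcium released by the ryanodine receptor binds troponin C, which lets troponin I, troponin T and tropomyosin uncover the actin, and the SERCA pump returns the calcium to store. Thin filaments are anchored at Z-discs by alpha-actinin and Zasp proteins, and giant proteins such as Sallimus and projectin link the Z-disc to the thick filament. Flies carry several actin and troponin C genes, which are used to different extents in flight muscle, in tubular leg and body wall muscle and in visceral muscle. The abdomen holds body wall, heart, gut and reproductive tract muscle beside the ovaries, and the head holds the muscles of the proboscis and antennae.

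The females came from the IV base population and were collected as virgins. Mated females were paired at 3 days of age with males of 1 of 6 evolved populations, which were started from the same IV population at a census size of 200. In the populations M1, M2 and M3 each male had been paired with 1 female, and in P1, P2 and P3 mating took place in groups of 5 females and 5 males, over 182 generations, with 1 more generation reared under common conditions before the matings. All females, virgins included, were frozen at 4 days of age, which is 24 h after mating in the mated groups. Each library pooled 20 heads or 20 abdomens. In each tissue there were 3 virgin libraries, 3 of females mated to M males and 3 of females mated to P males, and a mated library stands for 1 male population.

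The 18 libraries held 40396031 to 64761633 counts. Levels are given as CPM, the count scaled to a library total of 1e6 counts, as mean ± SD over libraries, and are divided by the exon length in kilobases where genes are compared with each other. Germline genes summed to 18258 to 24289 CPM in abdomens and 1349 to 1656 in heads, and neuronal genes to 50.0 to 79.3 CPM in abdomens and 3691 to 5156 in heads. In heads, digestive enzymes of the midgut summed to 3900 to 9105 CPM in virgin 1, M1 and M2 and to 6.85 to 60.5 in the other 6 libraries. The genes that differed between mated and virgin heads are therefore given with and without those 3 libraries.

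Muscle genes in virgins were first compared between abdomens and heads. In virgin abdomens 29 of the 32 genes were lower than in virgin heads, none was higher, and 3 did not pass the test, while 44.5% of the 11631 genes tested were lower and 44.1% higher, or 88.5% in either direction. The median difference of the 32 genes was -3.10 on the log2 scale, against -0.03 over all genes. The 29 include fln and Zasp67, which passed the filter on low counts through heads, where they are high, so their lower call was fixed by that choice. Of the 30 genes that passed in each tissue alone, 27 were lower. The 29 remained lower when any library was left out in turn. The summed level of the 32 genes was 2751 ± 210.3 CPM in virgin abdomens and 12604 ± 1114 CPM in virgin heads. In such bulk samples fewer muscle cells, less muscle RNA per cell and more RNA from other tissues, such as the ovaries, cannot be told apart.

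The order of the genes was led in both tissues by Act57B, a major muscle actin (FBgn0000044, chromosome 2R, 20944021 to 20946431, plus strand, BDGP6). Per kilobase of exon it stood at 167 ± 16.7 CPM in virgin abdomens and 761 ± 58.3 CPM in virgin heads (n = 3 each). In virgin abdomens the calcium pump SERCA followed at 61.0 ± 0.61 CPM per kilobase. Below it the myosin regulatory light chain Mlc2 at 48.9 ± 9.63, troponin I (wupA) at 46.9 ± 10.5, the alkali light chain Mlc1 at 44.6 ± 8.45, troponin T (up) at 44.3 ± 9.29 and tropomyosin Tm1 at 43.7 ± 4.56 CPM per kilobase had overlapping ranges of 1 SD. In virgin heads the ranks after Act57B were held by Mlc2 at 277 ± 15.8, Mlc1 at 238 ± 17.8 and the troponin C gene TpnC25D at 211 ± 21.7 CPM per kilobase, of which Mlc1 and TpnC25D overlapped within 1 SD. TpnC25D was in position 4 of 32 in heads and position 20 in abdomens, and Tm1 in position 17 in heads and 7 in abdomens. The lowest gene in both tissues was Zasp67, a Z-disc protein gene, at 0.144 ± 0.0453 CPM per kilobase in virgin heads and 0.00188 ± 0.00325 in virgin abdomens.

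Within the actin and troponin C families the tissues differed in how the level was spread over the members. Act88F, the actin of the indirect flight muscles in the thorax (FBgn0000047, chromosome 3R, 15439969 to 15442177, plus strand), was at 56.3, 52.2 and 53.5 CPM in virgin heads and at 0.0988, 0.0915 and 0.0213 CPM in virgin abdomens, the latter from 5, 5 and 1 counts. It showed the largest difference of the 32 genes, at -9.12 ± 1.15 on the log2 scale with an adjusted p of 1.98e-06, a size that depends on the prior count because of the few abdomen counts. Act79B, an actin of tubular muscles, was at 104 ± 7.83 CPM in virgin heads and 3.14 ± 0.996 CPM in virgin abdomens. Of the summed muscle actin level per kilobase, Act57B made up 84.0% ± 1.13 in virgin abdomens and 80.3% ± 1.19 in virgin heads. Act87E made up 15.0% ± 0.904 in virgin abdomens and 9.35% ± 1.13 in virgin heads. The other two actins together filled the remainder, which was small in abdomens, and since fly muscle actins are near identical in coding sequence the assignment of reads among them is uncertain.

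Troponin C, the calcium sensor of the thin filament, came mainly from TpnC73F and TpnC47D in abdomens and from TpnC25D in heads. In virgin abdomens TpnC73F made up 55.7% ± 3.87 of troponin C level per kilobase, TpnC47D 30.2% ± 1.63 and TpnC25D 11.5% ± 2.14. In virgin heads TpnC25D made up 79.6% ± 5.31, TpnC41C 8.84% ± 1.39 and TpnC73F 7.42% ± 2.81. TpnC47D and TpnC73F were 2 of the 3 genes whose difference between virgin abdomens and heads did not pass, with log2 differences of 0.08 ± 0.50 (adjusted p = 0.888) and -0.50 ± 0.29 (adjusted p = 0.110). The third was Tm1, at 429 ± 44.7 CPM in abdomens and 398 ± 19.7 CPM in heads, with a log2 difference of -0.14 ± 0.08 (adjusted p = 0.101). Tm1 also encodes cytoplasmic tropomyosins used outside muscle.

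**Figure D1:**
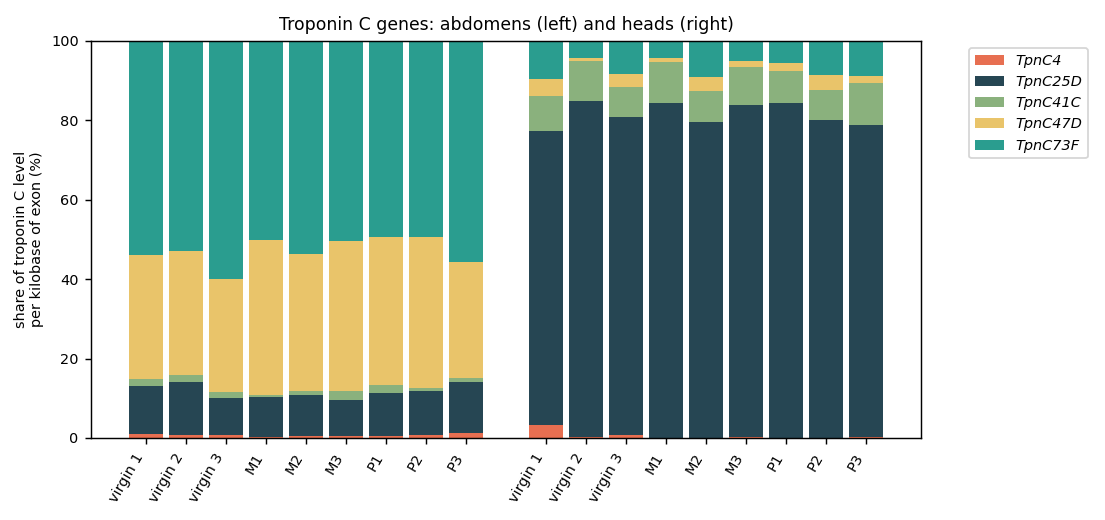
Share of each of the 5 troponin C genes in their summed level per kilobase of exon (percent, vertical axis) in each library, abdomens left and heads right. TpnC73F and TpnC47D fill most of every abdomen bar, and TpnC25D takes 74.0% to 84.6% of every head bar.

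Mating was accompanied in abdomens by higher levels of most of the muscle genes. Of the 32, 30 passed the filter on low counts in abdomens, and fln and Zasp67 did not. Of these 30, 25 rose and none fell at an adjusted p below 0.05 in edgeR's quasi-likelihood test, while 54.2% of the 10350 genes tested changed, 29.0% upward and 25.2% downward. The median log2 change of the 30 was 0.95, against 0.04 over all genes tested, and all 30 had positive values on this scale. When scaled on renal tubule genes 5 of the 30 were below 0, of which Tm1 and SERCA are among the 25. In 25 of them every mated library lay above every virgin library, as did 24.5% of the genes tested. Summed over all 32, the level was 2804, 2929 and 2519 CPM in the virgin libraries and 4420 to 5014 CPM in the 6 mated ones, with no overlap.

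**Figure D2:**
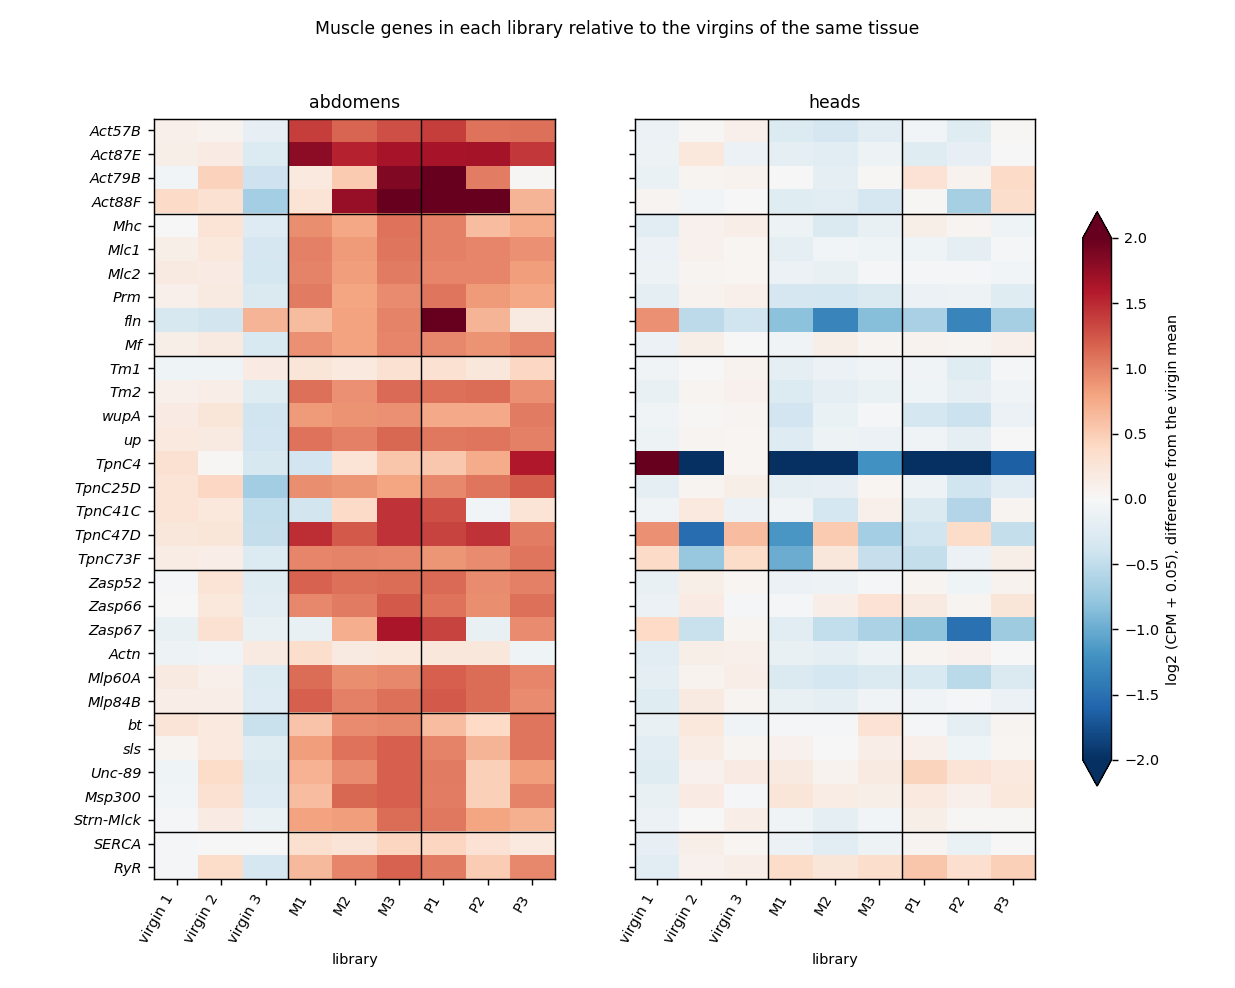
Level of each of the 32 genes (rows, grouped by role) in each library (columns), as the difference in log2(CPM + 0.05) from the mean of the virgin libraries of the same tissue; colours stop at 2 in each direction. Mated abdomens are red in nearly all rows and Tm1, Actn and SERCA are the palest of the abundant genes; mated heads have no common colour.

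Among the actins Act57B and Act87E rose. Act57B was at 309, 299.8 and 255 CPM in virgin abdomens and at 610.3 to 750.0 CPM in mated ones, with a median of 671. Its log2 change was 1.27 ± 0.11 (adjusted p = 7.12e-05). No mated library overlapped with the virgins, and P2 and P3 were the lowest of the mated ones. Act87E (FBgn0000046, chromosome 3R, 13425983 to 13428375, plus strand) was at 63.9, 66.4 and 48.7 CPM in virgin abdomens and at 158 to 205 CPM in mated ones, with a median of 185. It had the largest change among the genes that passed, 1.65 ± 0.13 (adjusted p = 5.35e-05). Again the groups did not overlap, and M1 was the highest. The share of Act87E in the actin level per kilobase was 14.1% to 15.9% in virgin and 17.2% to 20.9% in mated abdomens.

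Act88F and Act79B did not pass, and their mated libraries differed widely from each other. Act88F was at 0.0881, 0.332 and 0.852 CPM in M1, M2 and M3 and at 4.61, 1.31 and 0.134 CPM in P1, P2 and P3. Its log2 change from virgins was 3.15 ± 1.37 with an adjusted p of 0.0503, and of 0.00781 to 0.143 when single libraries were left out. The M1 library lay within the virgin range, and P1 was far above the rest. Act79B was at 2.93, 4.23 and 2.27 CPM in virgin abdomens, at 3.49, 4.42 and 11.1 CPM in M1 to M3 and at 16.9, 6.22 and 3.08 CPM in P1 to P3, with a log2 change of 1.27 ± 0.63 (adjusted p = 0.115). P1 and M3 were the highest, and virgin and mated libraries overlapped. Flightin (fln), a thick filament protein of flight muscle, was near the limit of detection in abdomens with 2 to 27 counts, and was also highest in P1 at 0.494 CPM. P1 and M3, the abdomens with the most Act79B, were left out together as an alternative chosen after seeing the data. Of the 30 genes 24 were then called, all of them higher, and the log2 change of Act88F was 2.01 (adjusted p = 0.0795).

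**Figure D3:**
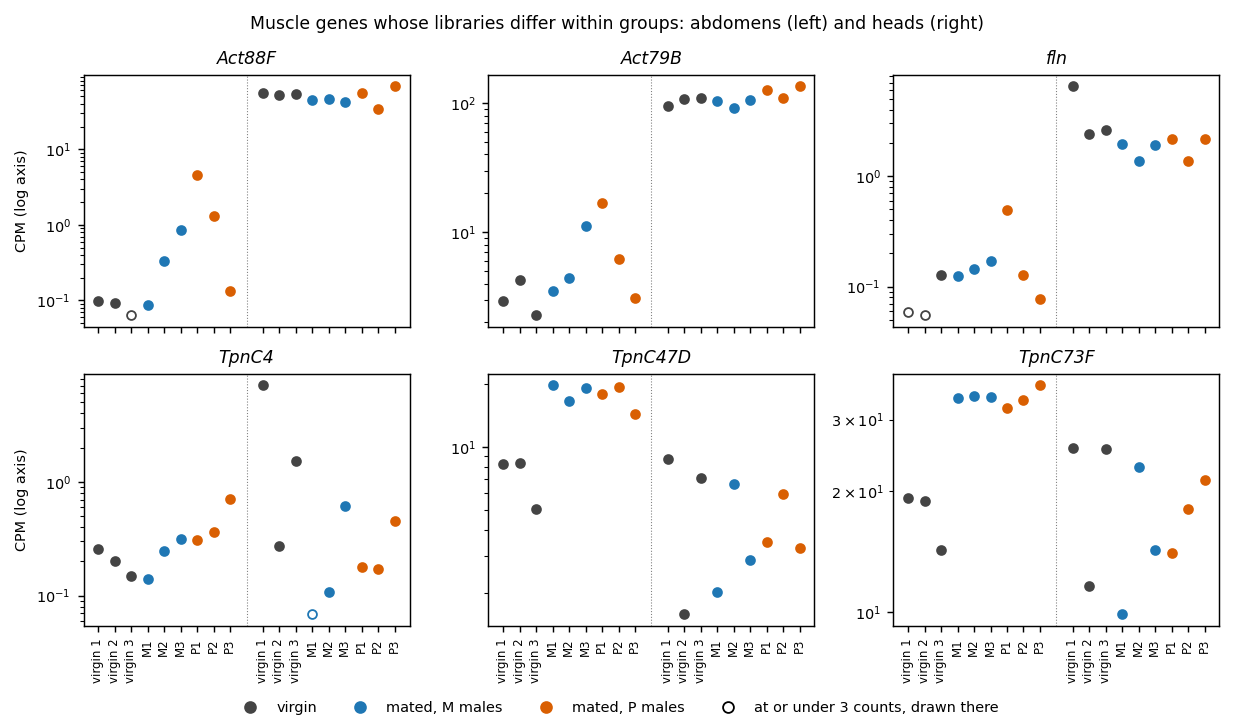
CPM (log axis) of 6 genes whose libraries differ within groups, chosen after their values were seen, with abdomens left and heads right in each panel; grey virgin, blue mated to M males, orange mated to P males, open circles at or under 3 counts. Act88F, Act79B and fln are highest in abdomen P1, TpnC4 and fln are highest in head virgin 1, and TpnC47D and TpnC73F vary in heads of every group.

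All 5 thick filament genes that could be tested rose by similar amounts, between 0.89 and 0.99 on the log2 scale. Mhc, the muscle myosin heavy chain (FBgn0264695, chromosome 2L, 16766566 to 16788766, plus strand), was at 214, 258 and 179 CPM in virgin abdomens and at 329.6 to 457 CPM in mated ones, with a median of 388. Its log2 change was 0.89 ± 0.14 (adjusted p = 0.000688), and the groups did not overlap. The light chains Mlc1 and Mlc2 changed by 0.99 ± 0.12 and 0.96 ± 0.12. Paramyosin (Prm), the core protein of the thick filament, changed by 0.94 ± 0.12, and myofilin (Mf) by 0.95 ± 0.10.

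Of the 9 thin filament regulators 7 rose, 1 of which, Tm1, fell on the renal tubule scale. Troponin I (wupA) went from 92.7 ± 20.8 CPM (n = 3) to 167 ± 12.7 CPM (n = 6) and troponin T (up) from 112 ± 23.5 to 231 ± 9.01 CPM. The log2 changes were 0.88 ± 0.13 (adjusted p = 0.000577) and 1.07 ± 0.12 (adjusted p = 0.000215). Of the troponin C genes, TpnC47D (FBgn0010423, chromosome 2R, 11273845 to 11275286, minus strand) was at 8.24, 8.37 and 5.04 CPM in virgin and at 14.3 to 19.7 CPM in mated abdomens, with a median of 18.6 and a log2 change of 1.34 ± 0.19 (adjusted p = 0.000464). TpnC73F was at 19.2, 18.9 and 14.3 CPM in virgin and at 32.03 to 36.5 CPM in mated abdomens, with a median of 34.1 and a log2 change of 1.00 ± 0.11 (adjusted p = 0.000153). For both genes all mated libraries lay above all virgin ones. TpnC25D, minor in abdomens, changed by 0.93 ± 0.22 (adjusted p = 0.00517). TpnC4, the troponin C of stretch-activated flight muscle, had a change of 0.63 ± 0.39 (adjusted p = 0.138) from 7 to 37 counts per library, and TpnC41C one of 0.64 ± 0.45 (adjusted p = 0.228), and for both the groups overlapped. TpnC41C was highest in M3 and P1, and its change was 0.33 without M3, 0.38 without P1 and 0.066 without both.

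The tropomyosin genes differed in size of change. Tm2 was at 82.1, 84.2 and 64.8 CPM in virgin and at 143 to 167 CPM in mated abdomens, with a median of 164 and a log2 change of 1.08 ± 0.11 (adjusted p = 0.000143). Tm1 was at 404, 402 and 480.1 CPM in virgin and at 491 to 568 CPM in mated abdomens, with a median of 517 and a log2 change of 0.31 ± 0.08 (adjusted p = 0.00885), which was negative on the renal tubule scale. The groups did not overlap for either gene, although virgin 3 came near the mated range for Tm1. Tm1 made up 56.0% to 66.4% of the tropomyosin level per kilobase in virgin abdomens and 44.5% to 51.4% in mated ones. In heads its share was 22.1% to 23.8% in all libraries. Tm1 was the only one of the 25 genes whose call depended on a single library: without virgin 2 its adjusted p was 0.0505.

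At the Z-disc 4 of the 5 genes that could be tested rose. Zasp52 and Zasp66, scaffold proteins that bind alpha-actinin, changed by 1.10 ± 0.11 (adjusted p = 0.000113) and 1.09 ± 0.10 (adjusted p = 9.92e-05). The muscle LIM proteins Mlp60A and Mlp84B changed by 1.07 ± 0.12 and 1.13 ± 0.12 (adjusted p = 0.000173 and 0.000146). Mlp84B was at 24.97 to 32.8 CPM in virgin and 57.6 to 70.3 CPM in mated abdomens. Alpha-actinin (Actn), the actin crosslinker of the Z-disc that is also made in other cells, was at 146, 149 and 177 CPM in virgin and at 148 to 201 CPM in mated abdomens, with a median of 182. Its change of 0.22 ± 0.10 did not pass (adjusted p = 0.0940), and the groups overlapped through P3.

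The 5 giant and elastic protein genes all rose. Sallimus (sls), the titin-like spring between Z-disc and thick filament, was at 83.8, 93.0 and 68.5 CPM in virgin and at 129.7 to 186 CPM in mated abdomens, with a median of 166 and a log2 change of 1.01 ± 0.12 (adjusted p = 0.000251). Projectin (bt) changed by 0.78 ± 0.18, obscurin (Unc-89) by 0.89 ± 0.17, the nesprin Msp300 by 0.94 ± 0.18 and Stretchin-Mlck (Strn-Mlck) by 0.93 ± 0.12. For bt, Msp300, Unc-89 and RyR the P2 library was the lowest of the mated ones, and all mated values still lay above all virgin values. Of the calcium handling genes, the ryanodine receptor RyR (FBgn0011286, chromosome 2R, 8860364 to 8888097, plus strand) was at 14.5, 19.3 and 11.8 CPM in virgin and at 21.1 to 34.0 CPM in mated abdomens, with a log2 change of 0.90 ± 0.18 (adjusted p = 0.00263). SERCA was at 498, 507 and 507 CPM in virgin and at 579 to 678 CPM in mated abdomens, with a change of 0.36 ± 0.08 (adjusted p = 0.00525), which was also negative on the renal tubule scale. The annotation places other genes on part of the exons of SERCA (1325 bases of CG2812, opposite strand), Actn (265 bases on the same strand and 1022 on the opposite) and fln (801 of 1300 bases, opposite strand), and the strand setting of the counting is not known.

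Virgin 3 was the lowest of the virgin abdomens for 27 of the 32 genes, the exceptions being fln, Tm1, Zasp67, Actn and SERCA. Without it, 25 of the 30 genes were still called and the median log2 change was 0.83. Cytoplasmic actins, which serve all cells, had smaller values than the muscle actins Act57B and Act87E. Act42A changed by 0.34 ± 0.07 (adjusted p = 0.00239) and Act5C had a value of 0.25 ± 0.10 (adjusted p = 0.0547), and both were negative on the renal tubule scale, at -0.42 ± 0.12 and -0.51 ± 0.14.

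Because ovaries make up much of the abdomen, the changes were also expressed relative to germline genes, by computing the scaling factors from these genes alone. Of 46 germline genes tested, 28 were lower in mated abdomens, 4 were higher and 14 did not pass, with a median log2 change of -0.29. Among all genes tested 25.2% were lower and 29.0% higher. The 4 germline genes with the smallest p were stg, krimp of the piRNA pathway, the differentiation factor bam and pgc. Their changes were -0.49 ± 0.07, -0.86 ± 0.12, -0.83 ± 0.12 and -0.52 ± 0.08. On the germline scale 28 of the 30 muscle genes rose and none fell, and the median muscle change was 1.26, but 51.1% of all genes changed on this scale, 46.9% upward and 4.17% downward, and their median was 0.34. Act87E changed by 1.96 ± 0.16 on it, Mhc by 1.19 ± 0.16, Tm1 by 0.61 ± 0.10 and Actn by 0.52 ± 0.15 (adjusted p = 0.0146). Act88F and TpnC4 passed as well (adjusted p = 0.0305 and 0.0419), while Act79B (0.0573) and TpnC41C (0.108) did not. In virgin abdomens Act88F had 5, 5 and 1 counts and TpnC4 13, 11 and 7. Act88F passed the filter on low counts through mated libraries, where it is high, and TpnC4 only with their help. The higher calls of both genes, counted among the 28, were therefore favoured by that filter. The ratio of the summed muscle level to the summed germline level was 0.104 to 0.122 in virgin and 0.207 to 0.263 in mated abdomens. Its mean was 2.08 times as high in mated abdomens (0.114 ± 0.00951, n = 3, against 0.237 ± 0.0224, n = 6), and in heads 1.04 times as high.

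Muscle genes were not the only genes outside the germline list at higher levels, where 29.0% of all genes tested were higher and 25.2% lower. Of 19 renal tubule genes, 17 rose in mated abdomens, with a median of 0.69 and summed levels of 653 to 748 CPM in virgins and 954 to 1057 CPM in mated females. Blood cell genes summed to 104 to 132 CPM in virgin and 185 to 222 CPM in mated abdomens, although only 2 of the 8 tested passed. The muscle to blood cell ratio was 23.3 ± 1.10 in virgin and 23.7 ± 1.56 in mated abdomens. Fat body genes (9 of 11 higher, 4586 to 6354 against 11807 to 22191 CPM), midgut genes (16 of 18 higher, 1083 to 2244 against 2821 to 6080 CPM), eggshell genes (14 of 17 higher, 1888 to 2473 against 8239 to 20021 CPM) and embryonic patterning genes (11 of 16 higher, 38.3 to 47.8 against 72.6 to 99.6 CPM) moved in the same direction. Neuronal genes (7 of 13 higher) and cuticle genes (3 of 4 higher) did so too. Photoreceptor genes did not, with none of 13 called in either direction and a median log2 change of 0.16. The genes cup, gammaTry and Sry-alpha of these lists had no count in abdomens. The part of these cell types in the muscle result was not tested.

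**Figure D4:**
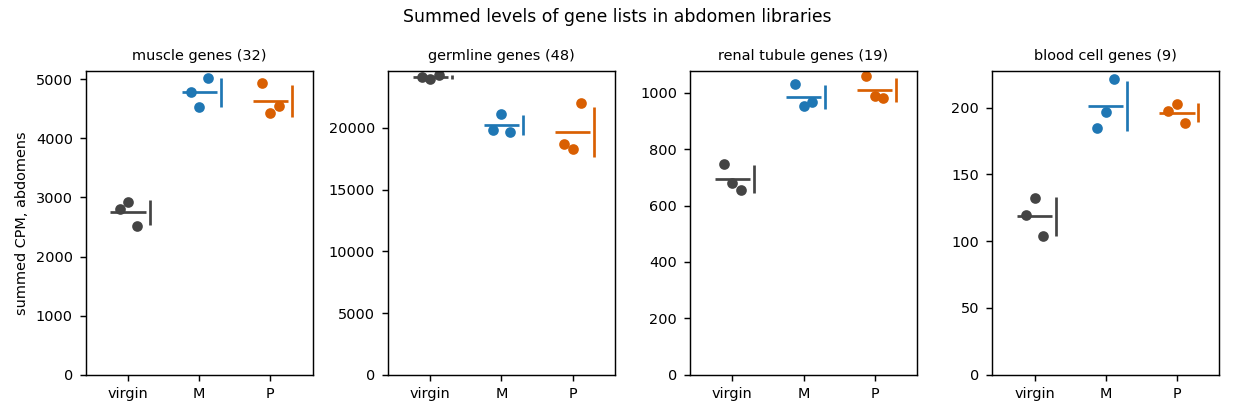
Summed CPM of 4 gene lists in abdomen libraries (points) with the mean and SD of each group (horizontal and vertical lines, n = 3), all axes from 0. Muscle, renal tubule and blood cell genes are higher in mated than in virgin abdomens with no overlap, and germline genes are lower.

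Set against the renal tubule genes, most of the muscle difference was no longer detected. On that scale 9 of the 30 genes were higher and 3 were lower, where 68.9% of all genes differed, 6.7% higher and 62.2% lower, and the median of all genes was -0.70. The median of the muscle genes was 0.22. The genes still higher were Act57B at 0.53 ± 0.13, Act87E at 0.91 ± 0.12, Tm2, up, TpnC47D at 0.61 ± 0.15, Zasp52, Zasp66, Mlp60A and Mlp84B. The genes lower were Tm1 at -0.45 ± 0.13 (adjusted p = 0.00445), Actn at -0.55 ± 0.13 (adjusted p = 0.000744) and SERCA at -0.40 ± 0.12 (adjusted p = 0.00703). The sign of these 3 genes turned because this scaling moves all genes down alike, and on both scales they lay above the median of all genes. The muscle to tubule ratio was 3.75 to 4.31 in virgin and 4.47 to 5.19 in mated abdomens.

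**Figure D5:**
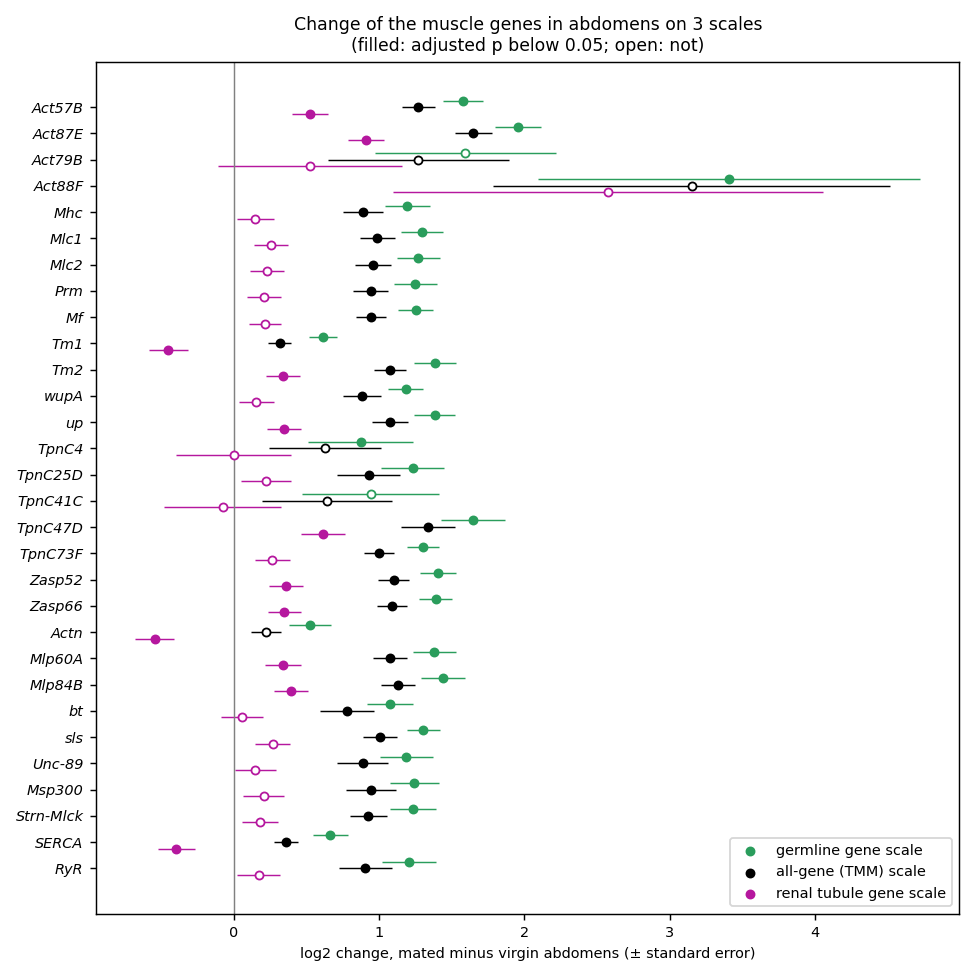
Log2 change from virgin to mated abdomens (horizontal axis, ± standard error) of the 30 genes tested, with scaling by germline genes (green), all genes (black) or renal tubule genes (magenta); filled symbols have an adjusted p below 0.05. The order of the genes is alike on the 3 scales, and Tm1, Actn and SERCA lie above 0 with the first pair of scales and below 0 with the third.

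The muscle genes were finally scaled on their own 32 members, an alternative chosen after seeing the data, which shows which of them departed from the common change. On this scale 5 of the 30 differed, against 73.1% of all genes, 4.04% higher and 69.1% lower, whose median was -0.96. Since the muscle genes set the scale, most of them lie near 0 on it by construction. The count of 5 and the 73.1% are therefore not a like comparison. Act87E was higher by 0.66 ± 0.19 (adjusted p = 0.000607) and TpnC47D by 0.37 ± 0.17 (adjusted p = 0.0437). Lower were Actn at -0.82 ± 0.17 (adjusted p = 4.61e-06), Tm1 at -0.72 ± 0.18 (adjusted p = 0.000121) and SERCA at -0.66 ± 0.18 (adjusted p = 0.000457). The latter 3 and Act87E were called without any 1 library, and TpnC47D was lost in 8 of the 9 cases. The cytoplasmic actins Act5C and Act42A were also lower on the muscle scale, by 0.78 ± 0.18 and 0.68 ± 0.18. The other 25 genes, among them all thick filament and giant protein genes, had changes that did not pass.

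Other genes of muscle changed in part with the contractile genes in abdomens. For this list and those that follow, the shares over all genes tested were 29.0% higher and 25.2% lower. Of 19 further genes of sarcomere and cytoskeleton, 13 were higher and 2 lower, with a median log2 change of 0.41. The largest among those named by smallest p were the chaperone l(2)efl at 1.35 ± 0.19, the calponin-like Mp20 at 1.32 ± 0.17 and thin (tn), which stabilises costameres, at 1.20 ± 0.10. Tropomodulin (tmod), which caps thin filaments, was at 0.42 ± 0.07. Of 19 genes of muscle attachment 10 rose and 2 fell, led by the integrin ligand Tiggrin (Tig) at 1.53 ± 0.16, the integrin subunits if at 1.21 ± 0.14 and mew at 0.93 ± 0.12, and Lmpt at 0.91 ± 0.12. Of 17 genes of muscle excitation 11 rose and 1 fell, among them the glutamate receptor subunits GluRIIA at 0.88 ± 0.15 and GluRIIC at 0.71 ± 0.15 and the channels Ih at 0.92 ± 0.14 and Shal at 0.74 ± 0.14.

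Of 17 genes that regulate muscle development 12 rose and 2 fell, including the transcription factors ap at 1.19 ± 0.13 and hth at 1.01 ± 0.15, the receptor htl at 1.21 ± 0.13 and the fusion protein blow at 0.90 ± 0.12. Of 17 genes of muscle energy metabolism, which act in other tissues too, 2 rose and 1 fell, and their median was -0.01. These were the mitochondrial ADP/ATP carrier sesB at 0.33 ± 0.09, aldolase (Ald1) at 0.33 ± 0.12 and the carnitine palmitoyltransferase whd at -0.20 ± 0.06. On the renal tubule scale the counts were 3 higher and 12 lower for the further sarcomere and cytoskeleton genes, 3 and 10 for attachment, none and 5 for excitation, 3 and 3 for regulators and none and 16 for metabolism. Of all genes tested, 6.7% were higher and 62.2% lower on that scale.

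In heads 1 of the 32 muscle genes, RyR, passed between mated and virgin females, where 2.21% of 10886 genes changed, 0.863% upward and 1.35% downward. RyR was at 175, 217 and 223 CPM in virgin heads and at 242 to 300.5 CPM in mated heads, with a median of 263 and a log2 change of 0.43 ± 0.08 (adjusted p = 0.0269). All mated heads lay above all virgin heads, and P1 was the highest. The call was lost without M1 (adjusted p = 0.0597), P1 (0.0756), virgin 1 (0.0938) or virgin 3 (0.0624), and with virgin 1, M1 and M2 all left out the change was 0.31 (adjusted p = 0.275) and no gene of the table was called. Fat body genes summed to 72335 to 84954 CPM in virgin and 89270 to 127353 CPM in mated heads, with 2 of 11 called in all heads and none without those 3 libraries, and their part in the RyR result was not tested. The median log2 change of the 32 genes was -0.07, against -0.01 over all genes, and 10 of the 32 were above 0.

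In 2 further genes all mated heads lay below all virgin heads, where 5.9% of all genes did so and 2.37% lay entirely above. Mlp60A was at 197, 235 and 245 CPM in virgin heads and at 155 to 185 CPM in mated heads, with a median of 183 and a log2 change of -0.30 ± 0.07 (adjusted p = 0.0641). P2 was the lowest, and without virgin 1 the gene passed with a change of -0.38 (adjusted p = 0.0416). With virgin 1, M1 and M2 all left out its change was -0.41 (adjusted p = 0.129). fln was at 6.55, 2.40 and 2.62 CPM in virgin heads and at 1.36 to 2.18 CPM in mated heads, with a change of -1.04 ± 0.33 (adjusted p = 0.160). Virgin 1 stood far above all other heads for fln, and without it the change was -0.41, or -0.38 without M1 and M2 as well. TpnC4 also had its highest value in virgin 1, at 7.08 CPM against 0.274 and 1.53 CPM in the other virgins and 0.0227 to 0.617 CPM in mated heads, and its change of -3.33 ± 1.10 did not pass (adjusted p = 0.199). Without virgin 1 it was -1.63, and without virgin 1, M1 and M2 it was -1.04. For 24 of the 32 genes, fln and TpnC4 not among them, virgin 1 was the lowest virgin head. DESeq2, run as an alternative, called 4 of the 32 in heads, RyR higher and Mlp60A, fln and TpnC4 lower, where it called 6.09% of 10422 genes. TpnC4 passed the filter on low counts in heads only with help of the virgin libraries, where it is high. Its lower call was therefore favoured by that filter.

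The abundant contractile genes were not called in heads. Mhc was at 1459, 1778 and 1840.4 CPM in virgin heads and at 1379 to 1821 CPM in mated ones, with a change of -0.03 ± 0.09. Act57B was at 1201, 1336 and 1397 CPM in virgin and 1035 to 1334 CPM in mated heads, with a change of -0.14 ± 0.07 (adjusted p = 0.361). For both genes the groups overlapped. Act79B made up 6.73% to 6.82% of the muscle actin level per kilobase in virgin heads and 7.47% to 8.51% in mated heads, while its own change of 0.14 ± 0.07 did not pass (adjusted p = 0.352). TpnC47D and TpnC73F differed widely between heads of the same group. TpnC47D was at 8.70, 1.57 and 7.10 CPM in virgins, 2.02, 6.64 and 2.88 CPM in M1 to M3 and 3.51, 5.94 and 3.29 CPM in P1 to P3. TpnC73F was at 25.6, 11.6 and 25.4 CPM in virgins, 9.87, 22.9 and 14.3 CPM in M1 to M3 and 14.0, 18.0 and 21.2 CPM in P1 to P3. Virgin 2 and M1 were the lowest heads for both genes. On the germline scale RyR was again the only gene called in heads (0.48 ± 0.09, adjusted p = 0.0347), where 1.32% of all genes changed, 0.698% downward. Ovaries lie in the abdomen, so in heads this scale does not account for ovary share. Among the other muscle genes named above, l(2)efl was higher in mated heads by 0.52 ± 0.11 (adjusted p = 0.0403) and GluRIIC lower, at -0.65 ± 0.12 (adjusted p = 0.0268). Without virgin 1, M1 and M2 neither passed, with changes of 0.40 (adjusted p = 0.529) and -0.58 (adjusted p = 0.0929).

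The difference between the tissues was tested itself, in a model over all 18 libraries, which treats them as independent. Mated heads and abdomens of the same label share a male population, whether pools of heads and abdomens came from the same females is not stated in the labels, and the deviations of abdomen and head libraries with the same number had correlations of -0.44 to 0.28. For 27 of the 32 genes the mating effect was larger in abdomens than in heads, where 37.2% of 11631 genes differed, 18.6% in each direction. The 32 include fln, called, and Zasp67, not called, which passed the filter only through heads. Of the 30 genes that passed in each tissue alone, 26 were called. These include Act88F, which passed in abdomens through mated libraries, where it is high. They also include TpnC4, which passed in abdomens only with help of mated libraries and in heads only with help of virgin ones. For both genes a larger effect in abdomens was favoured by the filter. The median difference of the 32 genes was 1.01 on the log2 scale, against 0.03 over all genes. It was 1.70 ± 0.16 for Act87E, 1.35 ± 0.13 for Act57B, 1.32 ± 0.14 for Mlp60A, 1.13 ± 0.13 for Tm2 and 0.86 ± 0.18 for Mhc. Genes that did not pass were RyR at 0.41 ± 0.21 (adjusted p = 0.129), Act79B (0.198), Actn (0.360), TpnC41C (0.258) and Zasp67 (0.0530). Of the 27, 17 were called whichever library was left out, and the number called ranged from 20 without abdomen virgin 3 to 27. The 10 that were lost in at least 1 case were Act88F, Tm1, fln, bt, TpnC47D, TpnC73F, TpnC4, Unc-89, Msp300 and SERCA.

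Whether the evolutionary background of the male mattered was examined by comparing P with M libraries. In abdomens none of the 30 genes passed in edgeR (0.0% of 10350 genes), with 1 of them and 185 of all genes at an unadjusted p below 0.05. In heads none of the 32 passed in edgeR (0.0% of 10886 genes), with 1 of them and 864 of all genes at an unadjusted p below 0.05. DESeq2 called 10 genes in abdomens and 15 in heads, no muscle gene among them, and limma called none in either tissue. The median log2 difference of the muscle genes was -0.04 in abdomens and 0.06 in heads. The summed muscle level was 4530 to 5014 CPM in M and 4420 to 4936 CPM in P abdomens, which overlapped, and the muscle to germline ratio was 0.237 ± 0.0207 in M and 0.237 ± 0.0287 in P abdomens (n = 3 each).

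The difference with the largest size was that of Act88F in abdomens, 2.21 ± 1.15, and without P1 it was 0.78. TpnC4 had the smallest unadjusted p in abdomens, 0.0418, with a difference of 0.87 ± 0.42. In heads that gene was Act79B, with an unadjusted p of 0.00428, a difference of 0.28 ± 0.08 and an adjusted p of 0.61. It was at 103, 92.2 and 105 CPM in M and at 126, 109.5 and 135 CPM in P heads, with no overlap. The gene was picked for its small p, and the share of all genes without such overlap was not counted. With 3 populations a regime the standard errors of the difference ran from 0.09 for Tm1 to 1.15 for Act88F in abdomens.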

How the data were processed

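RNA from pooled heads or abdomens of females was made into stranded total RNA libraries, per the labels' protocols, and each of the 18 libraries was sequenced in 2 runs. Per the submitters' processing notes, the tools were Trimmomatic 0.33, TopHat2 2.1.0 and HTSeq 0.6.1 with the BDGP6 build. The authors deposited whole-number counts per gene; how that counting treated strand and ambiguous reads, and its annotation version, is not given in the sources used here. The 2 runs of a library differed by a chi-square per degree of freedom of 1.81 to 3.32, replicate libraries by 38.7 to 227, and runs were summed.

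Symbols, coordinates and exon lengths came from annotation release 115 of BDGP6, which held 17387 of the 17552 gene IDs. edgeR 4.0.16 (R 4.3.3) was fitted to the whole table in each tissue, and over both tissues for differences between them, with filterByExpr, TMM scaling, robust quasi-likelihood tests and Benjamini-Hochberg adjustment, calling genes below 0.05. Fitted log2 changes use a prior count of 2 and are given ± standard error, taken as the change without prior count divided by the square root of F. Further fits took TMM factors from germline, renal tubule or muscle genes alone, left out libraries, used single runs, no filter, library totals or the replicate number, or replaced edgeR by DESeq2 1.42.0 or limma 3.58.1. In simulated counts the abdomen fit recovered 93% of 100 genes changed by 1 on the log2 scale and the head fit 89%. The fit of the difference in mating effect recovered 48%. The simulated spread between libraries was narrower than that fitted in heads or over both tissues, and only genes with many counts were changed.

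The 32 genes, the other gene lists and the tests were chosen with earlier results of these data known. All 32 genes were accounted for; of other muscle lists and the germline list up to 4 genes with the smallest p in mated against virgin abdomens were named, and Act5C and Act42A as cytoplasmic actins. The labels do not state if virgin pools were independent cultures, so p-values cover only the spread of the pools at hand, which may be technical. A count of 3 was taken as the limit of detection, for counting error only.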

Additional observations from a re-analysis of the deposited data

Results flagged for a closer look

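In 4 of 63 sets of 6 mated libraries tested, 1 library stood apart from the rest by more than Dixon's test allows, where chance gives about 1 in 20. In abdomens this was P1, highest for Act88F (gap 0.729 of the range) and for fln (0.775). In heads it was M1, lowest for Mf (0.652), and P2, lowest for Mlp60A (0.705).

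For 27 genes the mating effect on the log2 scale was larger in abdomens than in heads by a test of the difference itself. The differences in abdomens minus heads among actins were 1.35 for Act57B, 1.70 for Act87E and 3.15 for Act88F. Among thick filament genes they were 0.86 for Mhc, 0.99 for Mlc1, 0.92 for Mlc2, 1.08 for Prm, 0.79 for Mf and 2.05 for fln. Among thin filament regulators they were 0.33 for Tm1, 1.13 for Tm2, 1.01 for wupA, 1.09 for up, 3.88 for TpnC4, 1.00 for TpnC25D, 1.72 for TpnC47D and 1.20 for TpnC73F. Without head virgin 1 the difference was 2.21 for TpnC4 (adjusted p = 0.0877) and 1.46 for fln (adjusted p = 0.0711), and without abdomen P1 it was 1.58 for fln, which had 2 to 27 counts in abdomens. Without single libraries the values ran from 1.31 to 2.16 for TpnC47D and from 1.04 to 1.47 for TpnC73F. At the Z-disc they were 1.03 for Zasp52, 0.84 for Zasp66, 1.32 for Mlp60A and 1.14 for Mlp84B. Among giant proteins they were 0.67 for bt, 0.86 for sls, 0.57 for Unc-89, 0.67 for Msp300 and 0.84 for Strn-Mlck. SERCA had a difference of 0.35.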

How the results depend on the processing

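In abdomens, 25 muscle genes were called in mated against virgin libraries, 24 to 27 without single libraries and 12 when scaled on renal tubule genes, with 9 higher and 3 lower. On that scale the log2 change turned negative for Tm1 (-0.45), Actn (-0.55), SERCA (-0.40), TpnC41C (-0.078) and TpnC4 (-0.00079), which follows from the higher tubule genes by construction. In heads, 1 gene was called, 4 with DESeq2 (which called 6.09% of all genes there), 0 with the replicate block, 0 without virgin 1, M1 and M2 together, and 0 to 1 without single libraries. Counts on the muscle gene scale ran from 4 to 6 without single libraries, those for the difference in mating effect from 20 to 27 and those for virgin abdomens against heads from 29 to 30. The difference between virgin abdomens and heads, not called for either gene, turned to 0.11 for Tm1 with library totals. For TpnC47D it turned to -0.12 with DESeq2, -0.37 with run 2 alone and ranged from -0.36 to 0.48 without single libraries (-0.019 without abdomen virgin 1, -0.041 without abdomen virgin 2), and the cause was not tested. Deviations of libraries with the same replicate number had correlations of -0.43 to 0.031 in abdomens and -0.53 to 0.68 in heads. Those with different numbers had -0.31 to 0.52 and -0.83 to 0.74. Taken around means of 3 libraries, such values cannot settle whether the numbers pair the libraries. With the replicate block 25 muscle genes were called in abdomens and 25 for the difference in mating effect. The fits without M3 and P1 and on the muscle gene scale were chosen after seeing the data. Depth limits Act88F, fln, TpnC4 and Zasp67 in abdomens.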
